A study of Mus musculus with 8 samples.

Results

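The genes described here encode the intraflagellar transport (IFT) machinery and the BBSome, the protein complexes that carry cargo along the microtubules of cilia. Members were all genes of the raw count table whose symbol begins with Ift or Bbs followed by a digit, interferon genes excepted, plus 16 named motors, complex subunits and ARF-like GTPases, and this gave 38 of the 27179 genes listed. The rule used names only and no measured value, but it was chosen with earlier results of these data known. By symbol, 14 members were Ift genes and 8 were Bbs genes, and the 38 lay on 16 chromosomes.

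RNA came from lungs of C57BL/6 mice (C57BL/6J in the paper) of 18 to 22 weeks, taken 11 to 12 weeks after tumor induction. Their genotype is labelled Eml4-Alk translocation. All mice had received intrapulmonary adenovirus encoding Cas9 and guide RNAs, which rearranges the Eml4 and Alk genes in infected cells, and all were given 4.5 nmol of QZ1-(PEG2K), an intravenous quenched probe whose Cy5 signal appears when proteases cut its linker. Live lung cells negative for CD45 and CD11b were sorted by that signal into QZ1-hi and QZ1-lo populations, each represented by 4 libraries numbered here in accession order. Each population was a mixture of cell types from tumor-bearing lungs, its purity was not assessed directly, no library of healthy lung entered the comparison, and the mouse behind each library was not given.

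Cilia are built and maintained by transport in opposite directions. Trains of the IFT-B complex are moved toward the ciliary tip by kinesin-2, and IFT-A returns them to the base with dynein-2, while the BBSome, recruited to membranes by the GTPase Arl6, carries membrane proteins out of the cilium. Most lung cell types can form a single primary cilium, which serves in Hedgehog signaling, whereas multiciliated airway cells assemble many motile cilia and use the same transport machinery for them.

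Total counts per library were between 18380918 and 26847938 with overlapping ranges (two-sided exact permutation test, p = 0.943). Mitochondrial and ribosomal RNA genes took 43.7% to 65.6% of the counts in QZ1-hi, 56.0% on average, and 34.0% to 53.2% in QZ1-lo, 41.9% on average (two-sided exact permutation test, p = 0.114). Less depth was thus left for other genes in QZ1-hi on average. Removing these genes left 12 members called lower, but removal does not change the counts of other genes. The part of this lower depth in the results was therefore not tested. Counts were scaled with edgeR's TMM factors (0.660 to 1.35) to CPM, counts scaled by effective library size, and 3 counts corresponded to between 0.0894 and 0.179 CPM, a floor that covers counting error only. Among cell type markers, Cdh5, an endothelial cadherin, was higher in QZ1-hi (log2 fold change 3.54, SE 0.50, edgeR adjusted p = 0.000837). Epcam, an epithelial adhesion molecule, was lower (-1.17, SE 0.19, edgeR adjusted p = 0.00158). The 5 pan-epithelial markers and 3 of 4 alveolar type 1 markers were called lower in QZ1-hi, all 6 endothelial markers and 5 of 6 fibroblast markers were called higher, and the summed level of 5 leukocyte markers, at 195.5 to 452.7 CPM over the 8 libraries, overlapped between populations. Alveolar type 2 markers went the other way, with positive log2 fold changes for all 5 (median 0.39) and the surfactant gene Sftpc called higher (0.78, SE 0.21, edgeR adjusted p = 0.0231), so epithelial markers did not all fall.

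Most IFT and BBSome transcripts had lower mean levels in QZ1-hi than in QZ1-lo, and calls were more frequent among IFT members. All 38 members passed the edgeR filter on low counts, which had to be met in at least 4 libraries, and 12 of the 38 (31.6%) were called lower in QZ1-hi (threshold of 0.05 on the adjusted p), against 8.21% of the 15583 genes tested. No member was called higher, against 9.88% of all genes tested, and no member had an unadjusted p under 0.05 in that direction (DESeq2 and limma-voom also called 0 higher). The log2 fold change of QZ1-hi relative to QZ1-lo was negative for 36 members and positive for 2, with a median of -0.59 beside 0.02 over all genes tested. For 9 members (23.7%), every QZ1-hi library lay below every QZ1-lo library, against 10.7% of all genes, and none lay entirely above, against 11.9%. Of the 19 IFT-A and IFT-B members, 9 (47.4%) were called lower, and of the 19 other members 3 (15.8%). Of the 12 called members, 6 were over 2-fold lower and 1 of these over 3-fold. Bbs10 was also over 2-fold lower in the fit but was not called, and 18 members differed by less than 1.5-fold.

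The count of 12 was sensitive to single libraries, falling to 6 without QZ1-hi replicate 1, 7 without QZ1-hi replicate 4, 5 without QZ1-lo replicate 2 and 7 without QZ1-lo replicate 3. Scaling by library size alone shifted the median of all genes tested to -0.44, called 20 members lower and 0 higher, and turned the split of all genes from 1280 lower and 1540 higher to 2509 and 882; directions are given here on the TMM scale. In bulk samples, fewer cells of a type and less RNA per cell cannot be told apart.

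**Figure D1:**
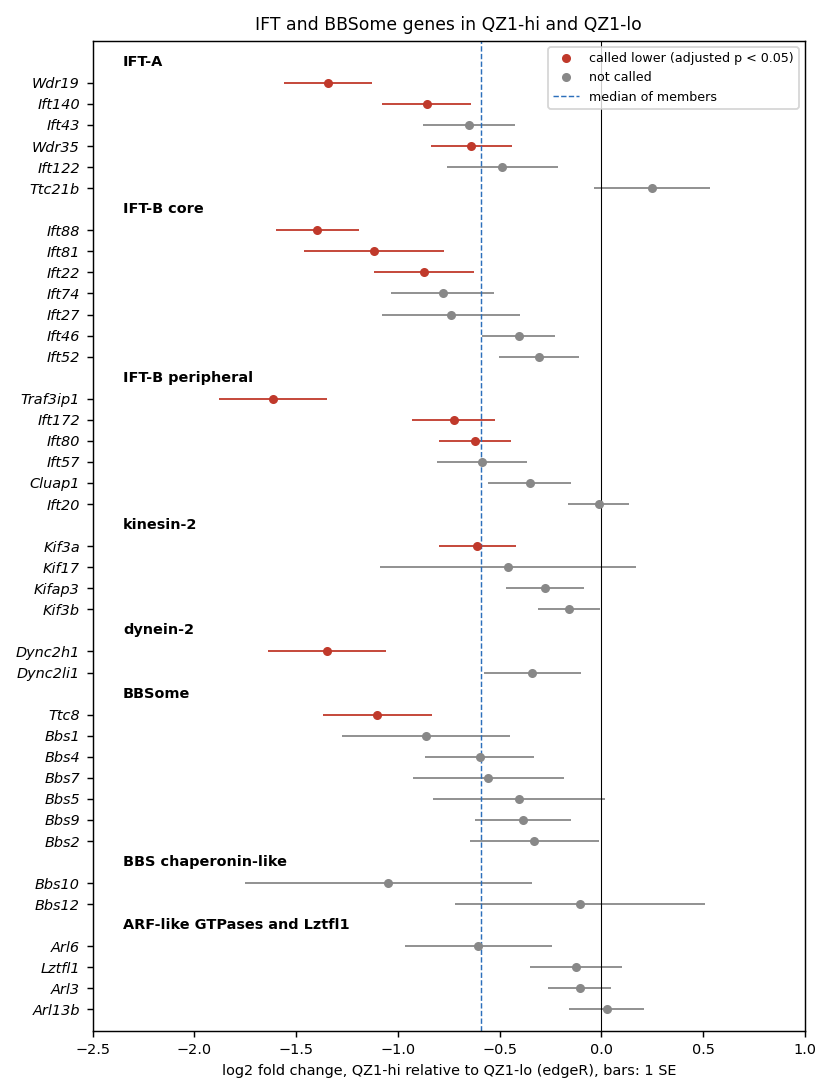
Log2 fold change of QZ1-hi relative to QZ1-lo for each of the 38 members (points, with bars of 1 SE from edgeR), grouped by role, with the 12 called lower in red and the median of -0.59 as a dashed line. The called members spread over IFT-A, IFT-B, kinesin-2, dynein-2 and the BBSome, and no ARF-like GTPase or chaperonin-like member was called.

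In the IFT-B complex, which carries tubulin and other axonemal cargo toward the tip, 6 of 13 members were called lower, 3 in the core and 3 in the peripheral part. Of all genes tested, 8.21% were called lower. Traf3ip1, also known as IFT54, a peripheral subunit, was at 21.7, 44.2, 34.9 and 38.5 CPM in QZ1-hi replicates 1 to 4 and at 64.0, 119.5, 146.8 and 95.5 CPM in QZ1-lo replicates 1 to 4. The populations did not overlap, and the lowest libraries of each were those numbered 1. This was the largest decrease among the members, 3.06-fold (log2 fold change -1.61, SE 0.27, edgeR adjusted p = 0.00175). Ift172, a peripheral subunit implicated in the turnaround of trains at the tip, was at 24.3, 30.2, 27.6 and 19.8 CPM in QZ1-hi and at 29.9, 52.1, 51.8 and 34.99 CPM in QZ1-lo. QZ1-lo replicate 1 lay within the QZ1-hi range and the other QZ1-lo libraries lay above it (log2 fold change -0.73, SE 0.21, edgeR adjusted p = 0.0301). Ift80, a propeller protein of the peripheral part, was at 10.7, 12.3, 9.66 and 11.1 CPM in QZ1-hi and at 16.5, 19.6, 13.0 and 18.2 CPM in QZ1-lo, narrowly without overlap (log2 fold change -0.62, SE 0.18, edgeR adjusted p = 0.0305). These last calls were fragile: Ift172 lost its call in 4 and Ift80 in 6 of the 8 fits that left out 1 library, with edgeR adjusted p up to 0.0928 and 0.0972, both without QZ1-lo replicate 2.

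At the other end of the peripheral subunits stood Ift20, which also sits at the Golgi and takes part in sorting ciliary membrane proteins. Its level was 24.1, 28.6, 21.9 and 21.5 CPM in QZ1-hi and 24.2, 20.3, 28.4 and 24.0 CPM in QZ1-lo. The ranges covered each other almost completely (log2 fold change -0.01, SE 0.15, edgeR adjusted p = 0.968), and the sign changed under other settings. Ift57 and Cluap1, the remaining peripheral subunits, did not pass the test, at log2 fold changes of -0.59 (SE 0.22) and -0.35 (SE 0.21). Cluap1 is uncertain, since 19.6% of its exonic stretches of 50 bases also occur in the overlapping gene model Gm20695.

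In the IFT-B core, Ift88, a tetratricopeptide protein whose loss abolishes cilia, was at 9.07, 10.4, 9.02 and 8.76 CPM in QZ1-hi and at 18.2, 27.1, 32.9 and 19.8 CPM in QZ1-lo. All QZ1-hi libraries lay close together and well below the lowest QZ1-lo library. The decrease was 2.63-fold, with the lowest adjusted p among the members (log2 fold change -1.40, SE 0.20, edgeR adjusted p = 0.000932). Ift81, which binds tubulin together with Ift74, was at 13.8, 23.7, 6.36 and 17.8 CPM in QZ1-hi and at 23.0, 34.9, 47.8 and 28.2 CPM in QZ1-lo. QZ1-hi replicate 3 was far below its group, QZ1-hi replicate 2 reached the QZ1-lo range, and the spread was the widest of the called members (log2 fold change -1.12, SE 0.35, edgeR adjusted p = 0.0449). Ift22, a small GTPase-like subunit, was at 4.87, 4.74, 4.63 and 3.28 CPM in QZ1-hi and at 6.68, 10.5, 7.27 and 7.65 CPM in QZ1-lo. Its populations did not overlap (log2 fold change -0.87, SE 0.24, edgeR adjusted p = 0.029). Ift81 lost its call in 6 of the 8 fits without 1 library (edgeR adjusted p up to 0.122, without QZ1-lo replicate 3) and Ift22 in 4 (up to 0.0988, without QZ1-lo replicate 2).

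Ift52, a core scaffold that binds Ift88, changed least in the core, at 10.6, 10.2, 10.2 and 13.3 CPM in QZ1-hi and at 11.6, 18.1, 13.4 and 11.5 CPM in QZ1-lo. QZ1-hi replicate 4 lay above 2 of the QZ1-lo libraries (log2 fold change -0.31, SE 0.20, edgeR adjusted p = 0.353). Ift74, the partner of Ift81, missed the threshold (log2 fold change -0.78, SE 0.25, edgeR adjusted p = 0.0549) and passed it with DESeq2 (adjusted p = 0.0257) and without QZ1-hi replicate 3 (edgeR adjusted p = 0.0214). Neither Ift27, a GTPase that links IFT-B to BBSome export (log2 fold change -0.74, SE 0.34), nor Ift46 (-0.41, SE 0.18) was called.

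**Figure D2:**
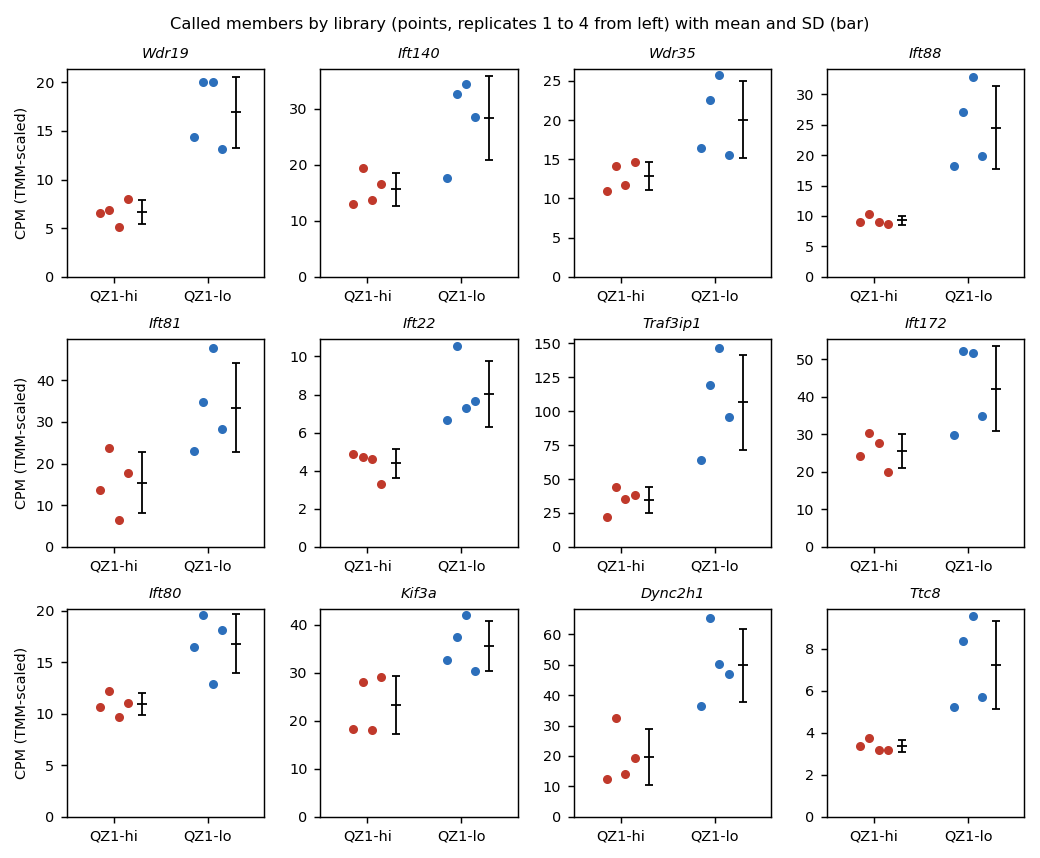
CPM after TMM scaling, on linear axes from 0, of the 12 members called lower, with a point for each of 4 QZ1-hi and 4 QZ1-lo libraries and a bar for the mean and SD. QZ1-hi and QZ1-lo points are separate for 9 genes and overlap for Ift140, Ift81 and Ift172.

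Of the 6 IFT-A members, 3 were called lower. Wdr19, the IFT144 subunit of the IFT-A core, was at 6.57, 6.87, 5.15 and 8.05 CPM in QZ1-hi and at 14.4, 20.0, 20.1 and 13.1 CPM in QZ1-lo. The QZ1-lo libraries were all above the QZ1-hi libraries, with replicates 2 and 3 highest. Its decrease was 2.54-fold (log2 fold change -1.34, SE 0.21, edgeR adjusted p = 0.00141). Ift140, another core subunit, was at 12.9, 19.4, 13.7 and 16.5 CPM in QZ1-hi and at 17.7, 32.7, 34.5 and 28.6 CPM in QZ1-lo. Only QZ1-lo replicate 1 fell below the highest QZ1-hi library (log2 fold change -0.86, SE 0.22, edgeR adjusted p = 0.0189). Wdr35, the IFT121 subunit needed for entry of membrane proteins, was at 10.9, 14.2, 11.7 and 14.6 CPM in QZ1-hi and at 16.4, 22.5, 25.7 and 15.5 CPM in QZ1-lo. The populations were separated by a small gap (log2 fold change -0.64, SE 0.20, edgeR adjusted p = 0.0464). Leaving out 1 library removed the call of Ift140 in 3 of 8 fits (edgeR adjusted p up to 0.0576, without QZ1-lo replicate 2) and that of Wdr35 in 6 (up to 0.126, without QZ1-lo replicate 3).

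Ttc21b, the IFT139 subunit at the edge of the IFT-A complex and a restraint on Hedgehog signaling, was at 5.59, 4.99, 6.82 and 8.58 CPM in QZ1-hi and at 6.86, 6.75, 4.52 and 3.68 CPM in QZ1-lo. It was the only IFT-A member with a positive log2 fold change, 0.25 (SE 0.28), and that was within its error (edgeR adjusted p = 0.635) and negative under scaling by library size alone (-0.24). The order of its QZ1-lo libraries was also unlike that of the called IFT-A members, with replicates 3 and 4 lowest. Ift43 (log2 fold change -0.65, SE 0.23) and Ift122 (-0.49, SE 0.27) did not pass the test.

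Among the motors, the dynein-2 heavy chain and the kinesin-2 subunit Kif3a were called lower. Dync2h1, the heavy chain that powers return transport, was at 12.4, 32.7, 14.0 and 19.2 CPM in QZ1-hi and at 36.5, 65.5, 50.4 and 47.1 CPM in QZ1-lo. Replicate 2 was the highest library of each population, and the populations did not overlap. Dync2h1 was 2.55-fold lower in QZ1-hi (log2 fold change -1.35, SE 0.29, edgeR adjusted p = 0.00761). Dync2li1, the light intermediate chain of the same motor, was at 12.4, 11.8, 9.60 and 7.99 CPM in QZ1-hi and at 11.4, 18.9, 13.0 and 9.70 CPM in QZ1-lo. Its ranges overlapped (log2 fold change -0.34, SE 0.24, edgeR adjusted p = 0.399).

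Kif3a, a motor subunit of heterotrimeric kinesin-2, was at 18.4, 28.1, 18.0 and 29.1 CPM in QZ1-hi and at 32.8, 37.5, 42.0 and 30.3 CPM in QZ1-lo. QZ1-hi replicates 2 and 4 came close to the lowest QZ1-lo library without reaching it (log2 fold change -0.61, SE 0.19, edgeR adjusted p = 0.0479). This call was lost in 5 of the 8 fits without 1 library (edgeR adjusted p up to 0.122, without QZ1-hi replicate 1). Kif3b, the partner motor subunit, was at 38.5, 32.7, 30.0 and 44.8 CPM in QZ1-hi and at 41.4, 44.7, 34.1 and 42.8 CPM in QZ1-lo. The highest libraries of the populations were nearly level (log2 fold change -0.16, SE 0.15, edgeR adjusted p = 0.551). Kifap3, the accessory subunit that joins them (log2 fold change -0.28, SE 0.19), and Kif17, the homodimeric kinesin-2 (-0.46, SE 0.63), were not called. Kinesin-2 also moves cargo outside cilia, and Kif17 was close to the detection limit, at 0.238 to 1.64 CPM over the 8 libraries.

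Of the 7 BBSome members, only Ttc8 was called (14.3%, against 8.21% of all genes tested called lower). Ttc8, the BBS8 subunit, was at 3.35, 3.75, 3.18 and 3.16 CPM in QZ1-hi and at 5.25, 8.38, 9.55 and 5.69 CPM in QZ1-lo. The QZ1-hi libraries were tightly grouped below all QZ1-lo libraries. The decrease was 2.14-fold (log2 fold change -1.10, SE 0.27, edgeR adjusted p = 0.0153). The other 6 subunits all had negative log2 fold changes, between -0.33 and -0.86, without passing the test. Bbs2, a propeller subunit that changed least, was at 4.53, 7.51, 3.59 and 4.11 CPM in QZ1-hi and at 5.72, 5.94, 8.90 and 4.26 CPM in QZ1-lo. QZ1-hi replicate 2 lay above all QZ1-lo libraries but replicate 3 (log2 fold change -0.33, SE 0.32, edgeR adjusted p = 0.558). Without that QZ1-hi replicate 2, Bbs1, the subunit that contacts Arl6, and Bbs4 were called lower (log2 fold changes -1.36 and -0.88, edgeR adjusted p = 0.0332 and 0.0382). With all libraries their log2 fold changes were -0.86 (SE 0.41) and -0.60 (SE 0.27).

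Bbs10 and Bbs12, which resemble chaperonins and assist assembly of the BBSome, were among the least abundant members. Bbs10 ranged from 0.116 to 1.57 CPM in QZ1-hi, with 2 counts in QZ1-hi replicate 3, and from 0.819 to 2.68 CPM in QZ1-lo (log2 fold change -1.05, SE 0.71). Bbs12 was at 1.61, 0.790, 1.56 and 0.715 CPM in QZ1-hi and at 1.22, 1.38, 0.398 and 2.05 CPM in QZ1-lo. Its lowest and highest libraries were both in QZ1-lo (log2 fold change -0.11, SE 0.61, edgeR adjusted p = 0.937). With errors this wide, a change of moderate size in either gene could not be detected.

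None of the ARF-like GTPases and Lztfl1 was called, and their median log2 fold change was -0.12. Arl13b, a GTPase of the ciliary membrane, was at 13.4, 21.3, 22.7 and 24.3 CPM in QZ1-hi and at 19.7, 19.5, 19.1 and 21.9 CPM in QZ1-lo. Its QZ1-lo libraries were nearly level, and QZ1-hi replicate 1 stood below all others (log2 fold change 0.03, SE 0.18, edgeR adjusted p = 0.947; the sign changed under other settings). Changes were small for Arl3, which releases lipid-anchored cargo inside cilia (log2 fold change -0.11, SE 0.16), and for Lztfl1, which regulates BBSome entry (-0.13, SE 0.23). Arl6, the BBSome recruiter, was at -0.60 with a wide error (SE 0.36). The summed level of these 4 genes was 36.2 to 49.2 CPM in QZ1-hi and 47.3 to 49.6 CPM in QZ1-lo.

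Per kilobase of annotated exon, a scale on which genes can be compared roughly, the order of the members differed between the populations. The length joined all annotated exons of a gene, and the annotation used for the counting is not given. Ranks between genes are therefore approximate. Traf3ip1 had the highest mean level in QZ1-lo, 28.7 ± 9.49 CPM per kb (SD, n = 4 libraries), and was second in QZ1-hi at 9.38 ± 2.57 (SD, n = 4). Ift20 was highest in QZ1-hi at 15.7 ± 2.12 CPM per kb (SD, n = 4) and second in QZ1-lo at 15.9 ± 2.18 (SD, n = 4). Kif3a came next in both, at 9.94 ± 1.44 CPM per kb in QZ1-lo and 6.52 ± 1.68 in QZ1-hi (SD, n = 4 each). Kif17 was lowest in both, at 0.238 and 0.172 CPM per kb in QZ1-lo and QZ1-hi, and Wdr19 stood at rank 27 in QZ1-lo and rank 35 in QZ1-hi. Mean levels in QZ1-lo were 7.22 to 106.5 CPM for called members and 1.09 to 40.8 CPM for the others, of which 9 lay below the lowest called member and 17 did not.

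Many members were highest or lowest in the same library of a population. QZ1-lo replicate 3 was the highest QZ1-lo library for 21 of 38 members and QZ1-lo replicate 1 the lowest for 18. In QZ1-hi, replicate 2 was the highest library for 20 members and the lowest for 1. No share over all genes tested was computed for these counts. The summed level of the 38 members was 397.7, 514.5, 415.9 and 437.0 CPM in QZ1-hi and 566.0, 795.1, 847.7 and 645.7 CPM in QZ1-lo, without overlap. A few abundant genes weigh most in such sums.

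**Figure D3:**
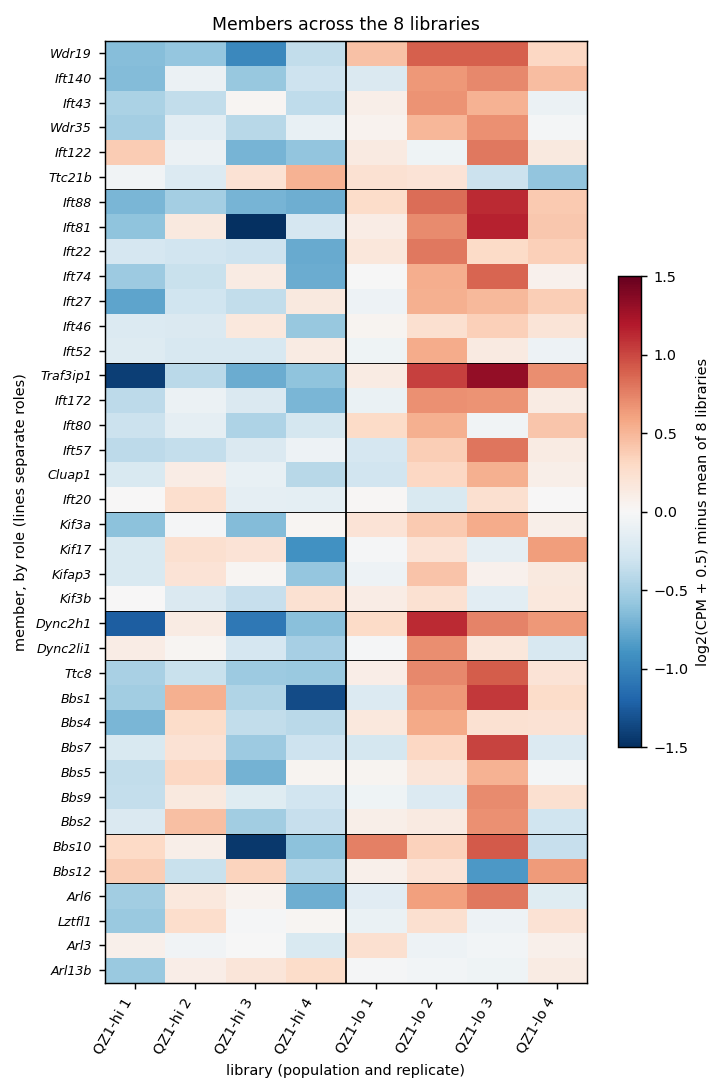
Each row is a member and each column a library, colored by log2(CPM + 0.5) minus the member's mean over the 8 libraries, with roles separated by lines. Of the 38 rows, 27 are above their mean in both QZ1-lo replicate 2 and QZ1-lo replicate 3, and 11 are not, Ttc21b, Arl3 and Arl13b among them. The mean includes the QZ1-hi libraries, so this count also holds the difference between populations, and no share over all genes was computed.

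Markers of multiciliated cells moved with the members. All 10 ciliated epithelium markers were called lower in QZ1-hi, with a median log2 fold change of -2.03, among them Ccdc153 (-2.40, SE 0.34), Pifo (-2.33, SE 0.47) and the axonemal dynein Dnah5 (-2.21, SE 0.36). Their summed level was 79.5, 231.8, 169.3 and 144.4 CPM in QZ1-hi and 386.3, 647.8, 744.4 and 468.1 CPM in QZ1-lo. No marker of the list was at 0 in all QZ1-hi libraries. The QZ1-lo libraries had the same order for this sum as for the sum of the members, replicate 3 highest and replicate 1 lowest, and QZ1-hi replicate 2 was the highest and replicate 1 the lowest QZ1-hi library for both sums. Markers of club cells, airway cells that secrete Scgb1a1, were also called lower, 4 of 4, with a median log2 fold change of -2.12. The part of airway cell content in the values of the IFT and BBSome genes was not tested.

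**Figure D4:**
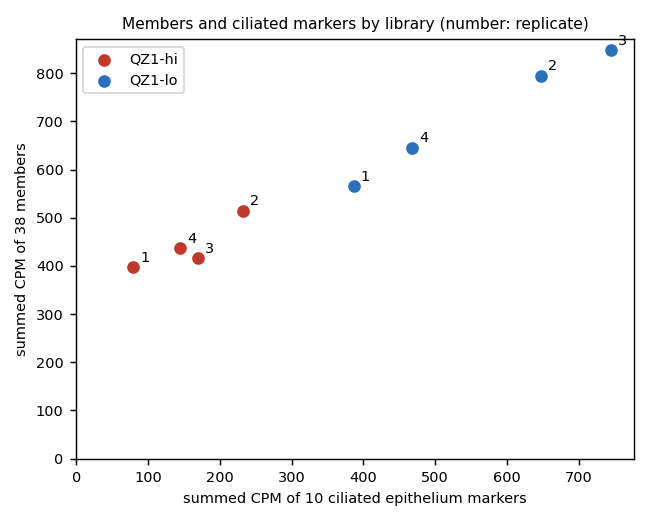
Summed CPM of the 38 members (vertical axis) against summed CPM of the 10 ciliated epithelium markers (horizontal axis), with a numbered point per library, red for QZ1-hi and blue for QZ1-lo. The 4 QZ1-lo points, from 566.0 to 847.7 CPM of members, lie above and to the right of the 4 QZ1-hi points, from 397.7 to 514.5 CPM.

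Structural genes of the motile axoneme had a median further below 0 than that of the transport genes. Of 26 motile cilium genes listed, 25 were tested and all 25 were called lower, with a median log2 fold change of -2.05. Tekt4, a tektin of the microtubule doublets, was at -2.41 (SE 0.41), the outer arm dynein Dnah9 at -2.40 (SE 0.34) and the central pair gene Spag16 at -2.36 (SE 0.44). Dnah5, Rsph1 and Tekt1 stand in this list and in the marker list.

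Genes of other ciliary compartments were called in part, against shares over all genes tested of 8.21% called lower and 9.88% called higher. Of 13 further IFT and BBSome components whose symbols the rule did not take, 3 were called lower and 0 higher (median log2 fold change -0.25): Ttc26, the IFT56 subunit (-1.47, SE 0.26, edgeR adjusted p = 0.00243), the GTPase Rabl2 (-1.18, SE 0.29) and Wdr60, a dynein-2 intermediate chain (-0.94, SE 0.26). In the transition zone, the gate at the ciliary base, 6 of 18 genes were called lower and 0 higher (median -0.75), led by Tctn2 (-1.13, SE 0.20) and Cep290 (-1.13, SE 0.13). Of 20 genes of basal bodies and primary cilium assembly, 5 were called lower and 2 higher (median -0.25). Kif24 (-1.44, SE 0.25), a kinesin that restrains ciliogenesis, and Cep83 (-1.23, SE 0.20), a distal appendage protein, were lower, and Kif7 (1.24, SE 0.32), a kinesin of Hedgehog signaling, was higher.

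Most tested genes of the Hedgehog pathway, whose transduction uses the primary cilium, had the opposite direction. Of 17 genes listed, 15 were tested, 8 were called higher in QZ1-hi (53.3%, against 9.88% of all genes tested) and 0 lower. The log2 fold change was positive for 14 and negative for 1, the ligand Shh. Shh was narrowly without overlap but was not called (-0.755, SE 0.28, edgeR adjusted p = 0.0886). The target gene Gli1 was at a mean of 4.35 CPM in QZ1-hi and 0.226 CPM in QZ1-lo (log2 fold change 4.28, SE 0.82). Gas1, a coreceptor, was at 27.7 and 3.28 CPM (3.08, SE 0.54). Fibroblast markers moved in the same direction, with 5 of 6 called higher and summed levels of 920.5 to 1850.0 CPM in QZ1-hi and 26.6 to 217.9 CPM in QZ1-lo. So did endothelial markers, 6 of 6 called higher (median log2 fold change 3.43), and pericyte markers, 3 of 5 called higher (median 2.57). The part of these cell types in the Hedgehog values was not tested.

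**Figure D5:**
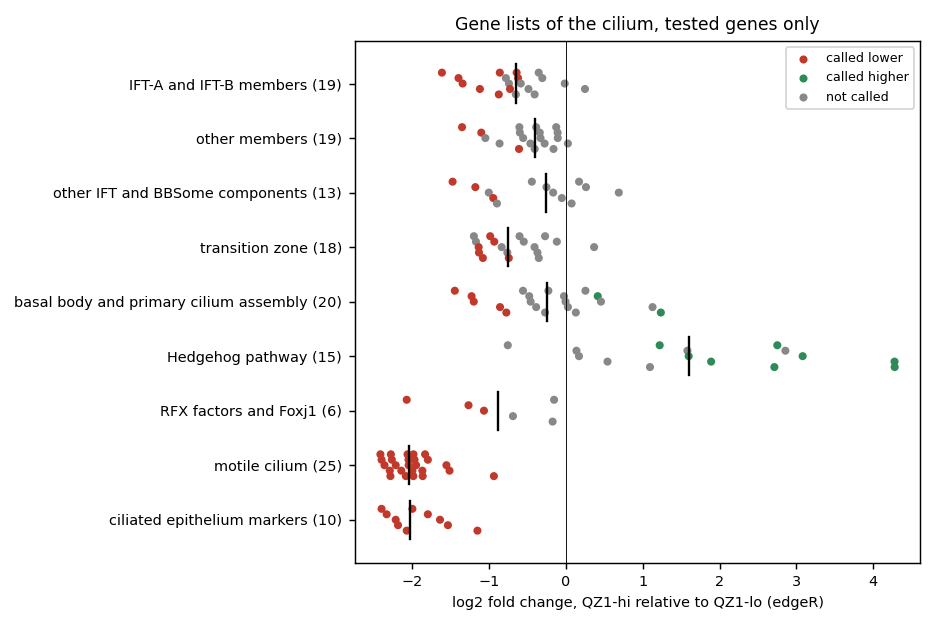
Log2 fold change of QZ1-hi relative to QZ1-lo for tested genes of 9 gene groups of the cilium (a point per gene, number of genes in brackets, black bar for the median), red where called lower, green where called higher and gray where not called. Motile cilium genes and ciliated markers lie to the left of most IFT and BBSome genes, and Hedgehog genes lie mostly to the right of 0.

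Of 7 genes listed as RFX factors or Foxj1, 6 were tested and 3 were called lower in QZ1-hi. Foxj1, the regulator of motile ciliogenesis, was at 23.2 CPM in QZ1-hi and 97.3 CPM in QZ1-lo on average (log2 fold change -2.07, SE 0.30, edgeR adjusted p = 0.000849), Rfx3 at 8.07 and 19.5 CPM (-1.27, SE 0.21) and Rfx2 at 7.68 and 16.0 CPM (-1.07, SE 0.32). RFX factors are known to bind X-box motifs in promoters of IFT and BBS genes, and such motifs consist of inverted arms related to GTTGCC. In the RefSeq promoter table for GRCm38.p6, 34 of the 38 members were found, and the 250 bases before each start site were searched on both strands. GTTGCC occurred in 9 of the 34 genes (26.5%) and in 11.8% of all 27025 genes in the table, the longer GTTGCCAT, which contains it, in 1 (2.94%, against 1.29%) and CATGGNAAC in 0 (against 1.80%). Members called lower had GTTGCC in 3 of 10 promoters and the others in 6 of 24. The stretches of the 3 called members are shown 5′ to 3′ in the direction of transcription, with GTTGCC or its complement in capitals.
Ift140: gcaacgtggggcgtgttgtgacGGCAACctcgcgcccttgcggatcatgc
Kif3a: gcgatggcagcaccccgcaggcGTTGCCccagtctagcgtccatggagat
Traf3ip1: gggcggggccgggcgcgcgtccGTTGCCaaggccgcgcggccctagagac
These lie at chr17:25015955-25016004 (plus strand), chr11:53567249-53567298 (plus) and chr1:91494567-91494616 (plus), and the leftmost capital precedes the start site of the promoter table by 109, 98 and 79 bases. The table's start is not always the outermost start of the gene: it lies 1668 bases inside Kif3a and 78 bases inside Traf3ip1 as the RefSeq gene table gives them, so the Kif3a stretch is within that gene and the capitals of Traf3ip1 span its outer start.

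An inverted form, GTTNCC followed after 0 to 3 letters by GGNAAC, was searched after the sequences had been seen, so its share among members is a description only. Inverted arms spelled otherwise were not searched. It occurred in 3 of the 34 members (8.82%) and in 0.788% of all genes in the table. The 3 were Bbs7, Ift57 and Lztfl1, none of them called lower. Their stretches are shown with all matched letters in capitals. In Ift57 the first capitals are a separate GTTGCC outside the inverted form, and the position given for Ift57 is that of this separate match.
Bbs7: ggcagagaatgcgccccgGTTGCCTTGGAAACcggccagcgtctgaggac
Ift57: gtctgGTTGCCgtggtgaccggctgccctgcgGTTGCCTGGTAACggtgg
Lztfl1: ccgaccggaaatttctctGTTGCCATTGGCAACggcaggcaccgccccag
They lie at chr3:36613479-36613528 (minus strand), chr16:49699202-49699251 (plus) and chr9:123717758-123717807 (minus), and the leftmost capital precedes the start site of the promoter table by 121, 87 and 164 bases, a start that lies 103 bases inside Bbs7 in the gene table. Their log2 fold changes were -0.56 (SE 0.37), -0.59 (SE 0.22) and -0.13 (SE 0.23). A match of letters is a description and does not show that a factor binds there.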

How the data were processed

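RNA-seq of 4 QZ1-hi and 4 QZ1-lo libraries was analysed from the table of raw counts per gene, which the authors deposited without normalization after a stranded total RNA (SMARTer) preparation and counting with Rsubread. The processing notes name mm10 and DESeq2. The aligner, annotation and strand setting of the counting are not given in the sources used here, so reads of 7 members that overlap a gene on the opposite strand may be shared with it. Entrez identifiers were given symbols for 25275 of 27179 rows. Members and gene lists were chosen with earlier results of these data known.

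Counts were tested in R 4.3.3 with edgeR 4.0.16 (filterByExpr with a minimum count of 10 and a minimum total of 15, TMM, quasi-likelihood test between populations, Benjamini-Hochberg adjustment over 15583 genes, threshold 0.05). Each SE was derived from the log2 fold change and the F statistic. Values per member and library were all named where a member was called or changed least in its role, and from other lists at most 3 called genes with the largest change were named, besides Foxj1, Rfx2, Rfx3, Epcam and Cdh5. Shh was named as the only tested Hedgehog gene with a negative log2 fold change. Group means were compared by exact permutation over 70 assignments (smallest p 0.0286). The labels call the 4 libraries of a group biological replicates. Their counts differed well beyond sampling noise, so none was counted as a repeat. The procedure was tested on simulated data. Alternatives were DESeq2 1.42.0, limma-voom with quality weights (3.58.1), size factors of DESeq2 in edgeR, library size only, no filter, a minimum of 10 counts per library, robust shrinkage, removal of mitochondrial and ribosomal RNA genes, an adjusted p under 0.01 and leaving out each library.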

Additional observations from a re-analysis of the deposited data

Results flagged for a closer look

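Of 76 sets of 4 libraries tested (38 members in 2 populations), 3 had a library whose gap to the nearest other exceeded Dixon's 95% limit, and chance flags about 1 in 20. Bbs4 was highest in QZ1-lo replicate 2 at 9.19 CPM, Ift22 was lowest in QZ1-hi replicate 4 at 3.28 CPM, and Ift52 was highest in QZ1-hi replicate 4 at 13.3 CPM. The cause of these values was not tested.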

How the results depend on the processing

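The count of members called lower, 12, became 20 with scaling by library size only and 4 at an adjusted p under 0.01. It was 5 to 13 when a library was left out, fits with fewer samples, and 9 to 14 under the other alternatives run. No alternative called a member higher. The median of -0.59 became -1.05 with library size only, where the median of all genes tested was -0.44. All genes called lower, 1280, became 2509 with library size only and 665 at an adjusted p under 0.01, and all genes called higher, 1540, became 882 and 902. Of the 12 calls, 4 (Traf3ip1, Ift88, Wdr19 and Dync2h1) were kept under all 17 alternatives, Ttc8 was lost only at an adjusted p under 0.01, and 5 members not called were called when a library was left out. Signs reversed only for members that were not called: Arl13b (0.03) was -0.044 with limma-voom, -0.48 with library size only and -0.059 to 0.185 without 1 library. Ift20 (-0.01) was 0.046 with limma-voom and -0.129 to 0.072 without 1 library, Bbs12 (-0.11) was -0.40 to 0.23 and Lztfl1 (-0.13) -0.272 to 0.023 without 1 library, and Ttc21b (0.25) was -0.24 with library size only. The cause of these changes was not tested. Bbs10 and Kif17 had no value with at least 10 counts in every library. No paired analysis was possible because replicate numbers follow accession order and neither labels nor methods tie libraries to a mouse. The populations alternate in that order, and both were sorted from lung suspensions of these mice. Libraries of different populations may therefore share a mouse, and the tests treated them as unpaired. Members with wide errors, such as Bbs10, Bbs12 and Kif17, could show only large changes.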
